A study of Mus musculus with 24 samples.

Results

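Corticothalamic projection neurons of layer 6 were followed over the first postnatal week, at postnatal day (P) 1, P3 and P7. The values are FPKM (fragments per kilobase of transcript scaled to the mapped fragments of the library) from bulk RNA-seq of sorted mouse neurons. Genes entered when they reached at least 10 FPKM in 1 or more of the 3 groups, which 7856 of the 9767 listed genes did. Of these, 58 rows with the symbol of a microRNA, a small nucleolar RNA or a genomic clone and 3 Gm-number rows at 0 in a whole neuron class were dropped, leaving 7795 genes. The change is the difference of log2(FPKM + 1) between P7 and P1, and P3 is the step between them.

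The neurons came from mice of the strain C57BL/6 per the labels, kept on a mixed C57BL/6J background per the methods, of the genotype Tle4-2A-CreERT2:Ai14, whose mothers received 4-hydroxytamoxifen during pregnancy (hereafter Tle4 CThPN). Ai14 is a reporter that turns on the red protein tdTomato in cells in which Cre has acted, and the inducible Cre is made from the Tle4 locus itself. Only neurons that made Cre late in gestation are therefore labelled. Callosal projection neurons from Cux2-CreERT2:Ai14 mice with the same strain and drug serve as the other class (Cux2 CPN). Labelled cells were sorted from somatosensory and motor cortex, and according to the methods each library pooled animals of both sexes from more than 1 litter. Each group was sequenced as 2 libraries, but the table holds 1 value per gene and group. No value therefore has an error or a replicate check, no test was possible, and every count and difference below describes these pooled libraries.

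Corticothalamic neurons send their axons from layer 6 to the thalamus and give a feedback input to the nuclei from which the cortex receives its sensory drive. Around birth they still carry high levels of the transcription factors that set their fate. In the days after birth their axons enter the thalamus, synapses form, and the chloride gradient that makes GABA inhibitory is built up.

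Tle4 itself, which encodes a Groucho-family corepressor and drives the Cre (chr19:14522562-14672473 in NCBIM37), was at 151 FPKM at P1, 116 at P3 and 97.2 at P7. In Cux2 CPN it was at 6.32, 4.14 and 2.02 FPKM at the same ages. Cux2 was below the minimum in Tle4 CThPN, at 3.62, 2.14 and 1.03 FPKM. The label of the class therefore matches its defining gene at each of the 3 ages. Further layer 6 genes were present throughout: Tbr1, a transcription factor of deep-layer fate, was at 142, 138 and 114 FPKM. Syt6, which encodes a synaptotagmin typical of corticothalamic cells, was at 147, 129 and 111 FPKM. Foxp2, another transcription factor of layer 6, was at 72.5, 38.7 and 47.4 FPKM, with its lowest value at P3.

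Most defining markers of other cells were low, with exceptions. The interneuron genes Gad1 and Gad2, which make GABA, stayed at or under 1.33 and 0.586 FPKM, and only 2 of 25 interneuron markers, Npy and Sst, reached the minimum. Of 15 astrocyte markers 2 reached it, of 16 oligodendrocyte lineage markers 1, of 15 microglial markers 1, of 18 endothelial and mural markers 2 and of 8 red blood cell genes 0. Summed over all listed markers, the interneuron genes were at 850 FPKM at P1, 649 at P3 and 187 at P7, of which Npy was 816, 614 and 148. Radial glia and progenitor genes summed to 265, 250 and 201 FPKM, with Fabp7 at 118, 111 and 56.0 and Dbi at 108 at P1 and P3 and 125 at P7, and layer 5 markers to 748, 1077 and 1717, a difference that is mostly Pcp4 (226, 494 and 1175). The microglial genes were at 32.5 FPKM at P1, 46.7 at P3 and 38.2 at P7, and the astrocyte genes at 68.1, 89.0 and 103. Apoe made up 31.7, 58.0 and 66.4 FPKM of the astrocyte sums, while Slc1a3, the other member of that list, was at 10.1, 6.69 and 5.15. The oligodendrocyte genes summed to 23.1, 33.2 and 15.8 FPKM, the red blood cell genes to 7.68, 3.58 and 11.5, and the endothelial and mural genes to 292, 343 and 475, most of it from Bsg, which neurons also express. Spp1, which encodes a secreted phosphoprotein, was at 0.299, 11.1 and 0.0318 FPKM and is the one coding gene among the 5 whose P3 value lay farthest above both P1 and P7. The other 4 were rows of small nuclear and 5S ribosomal RNA. The part of other cells in any result was not tested.

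From P1 to P7, 358 of the 7795 genes rose by at least 1 on the log2(FPKM + 1) scale, which is 4.59% of them. Another 213 genes, 2.73%, fell by at least 1. Of all members, 52.7% were higher at P7 than at P1. The median change was 0.03, with quartiles of -0.29 and 0.34, so most genes stayed close to their P1 level. The plot of P7 against P1 levels shows the genes that left the diagonal. Because a gene enters through its highest group, many of them were low at the other end: 175 of the 358 were under 10 FPKM at P1, and 124 of the 213 were under 10 FPKM at P7. Just inside the minimum lay Map6d1 (2.59, 4.93 and 10.0012 FPKM) and Zfyve9 (10.0048, 8.14 and 8.30). Just outside it lay Snhg4 (6.60, 8.13 and 9.99 FPKM) and Krt222 (2.78, 4.36 and 9.99).

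**Figure D1:**
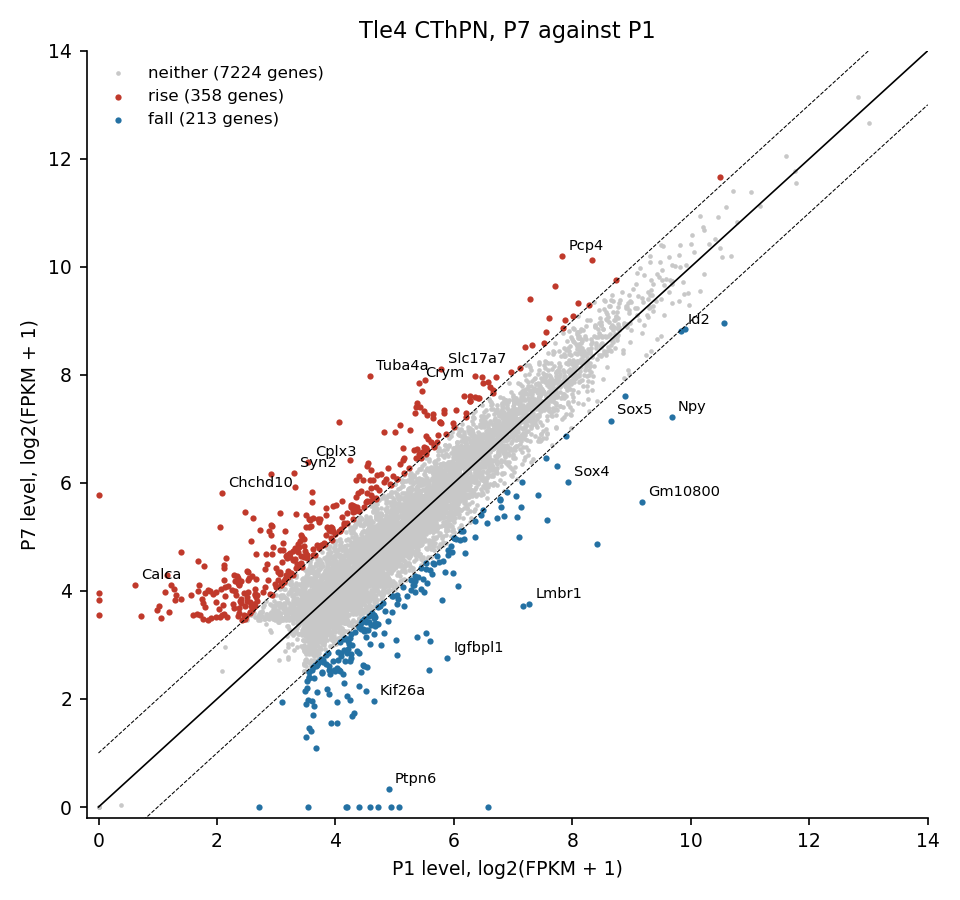
Level of each of the 7795 genes in Tle4 CThPN at P7 (vertical axis) against P1 (horizontal axis), both as log2(FPKM + 1), with 1 point per gene. The solid line marks equal levels and the dashed lines a difference of 1. The 358 genes that rose are red, the 213 that fell are blue, and points on the axes are listed at 0 at one of the ages.

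P3 lay between P1 and P7 for 348 of the 358 genes that rose and 199 of the 213 that fell, against 64.0% of all members. The choice of genes by their P1 to P7 difference largely fixes this. The median rise was 0.59 from P1 to P3 and 0.83 from P3 to P7, and the median fall was -0.53 and -0.83. Over all genes, 53 (0.68%) rose and 25 (0.321%) fell by at least 1 between P1 and P3, against 121 (1.55%) and 80 (1.03%) between P3 and P7. The second step spans 4 days and the first 2, so these counts are not per day. Cux2 CPN is given side by side, with the limit that the summed FPKM of the members was 514881 in Tle4 CThPN and 1118468 in Cux2 CPN at P1 and that the scaling between the classes is not given in the sources used here, so levels in the classes are only set side by side: 583 of the same genes (7.48%) rose and 340 (4.36%) fell from P1 to P7.

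The largest rise of an ordinary protein-coding gene was that of Chchd10, a small protein of the mitochondrial intermembrane space (chr10:75398318-75400470 in NCBIM37). It was at 3.22 FPKM at P1, 11.3 at P3 and 55.1 at P7, a change of 3.73. Tuba4a, an alpha-tubulin of mature neurons (chr1:75211549-75215828), was at 23.0, 55.8 and 250.4 FPKM, a change of 3.39. Both climbed at each step, and at P21 they stood at 208 and 977 FPKM.

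Calca, which encodes the peptides calcitonin and CGRP (chr7:121774994-121779871), was at 0.528, 2.80 and 16.3 FPKM in Tle4 CThPN, a change of 3.50. It was at most 0.239 FPKM in Cux2 CPN at these ages, and in Tle4 CThPN it was back at 0.078 FPKM at P21. The P7 value is therefore a peak of that age among the 6 sampled. Tppp3, which encodes a tubulin polymerization-promoting protein, followed a like course, at 6.50, 25.3 and 71.2 FPKM in the first week and 14.6 at P21.

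Ache, the acetylcholinesterase, was at 15.8, 40.6 and 138 FPKM, a change of 3.05. Tmem159, which encodes a lipid droplet protein, was at 3.17, 9.91 and 35.3 FPKM and stayed under 1 FPKM in Cux2 CPN. Aldh1a1, an enzyme that makes retinoic acid, was at 1.33, 5.08 and 16.4 FPKM. These 3 were lowest at P1 and highest at P7, with P3 between. Nell1, a secreted protein, was at 1.22, 4.04 and 18.7 FPKM, the host gene Snhg11, a long noncoding RNA, at 4.58, 9.53 and 42.9, and Syn2, a synapsin of the vesicle cluster, at 8.83, 20.6 and 71.4. The changes of these 3 were 3.15, 2.98 and 2.88.

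The set of largest changes also holds rows that need care. Tuba1c was at 1.63, 43.6 and 25.4 FPKM, a change of 3.33, but it has a close paralog in Tuba1b (146, 284 and 366 FPKM). How fragments were divided between them was not tested, so both values are reported as uncertain. Small structural RNAs (5S_rRNA, U5, U6, Y_RNA, snoU109, BX649381.1 and n-R5s rows) supplied 4 of the 15 largest rises and 9 of the 15 largest falls. Of 37 members that are up to 300 nt long or carry such a name, 19 were listed at 0 in at least 1 of the 3 groups, 5 rose and 10 fell. Several rows share 1 symbol there, and length-scaled values of such short RNAs may rest on few fragments. Fragment counts are not at hand, and these rows are not described further.

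Among coding genes, Ptpn6, a phosphatase best known from blood cells (chr6:124670725-124688732), showed the largest fall, at 28.8 FPKM at P1, 0.287 at P3 and 0.262 at P7. It was at 0.0601 FPKM at E18.5 and no higher than 0.564 in any other of the 12 groups. Lmbr1, a membrane protein, was at 153 FPKM at P1 but at 10.9 and 12.5 at P3 and P7, 8.49 at E18.5 and 17.8 or less in all other groups. Both genes stood high in the P1 group alone, and with 1 value per group it cannot be said whether 1 or both libraries carry it.

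Igfbpl1, a secreted protein of the insulin-like growth factor binding family (chr4:45822340-45839795), was at 58.2 FPKM at P1, 46.6 at P3 and 5.73 at P7, a change of -3.14, of which -2.82 came after P3. Kif26a, an atypical kinesin (chr12:113384446-113419957), was at 24.0, 11.5 and 2.89 FPKM, and Chaf1b (chosen after its values were seen), a subunit of the chromatin assembly factor that places histones on new DNA, at 18.53, 10.5 and 2.23. The changes of these 2 were -2.68 and -2.60. Gm16869, Gm10800, Gm10801 and Gm10718 changed by between -3.53 and -3.04, but they are predicted models on chromosomes 2 and 9 that moved in near-equal proportion, and reads may be shared among them.

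**Figure D2:**
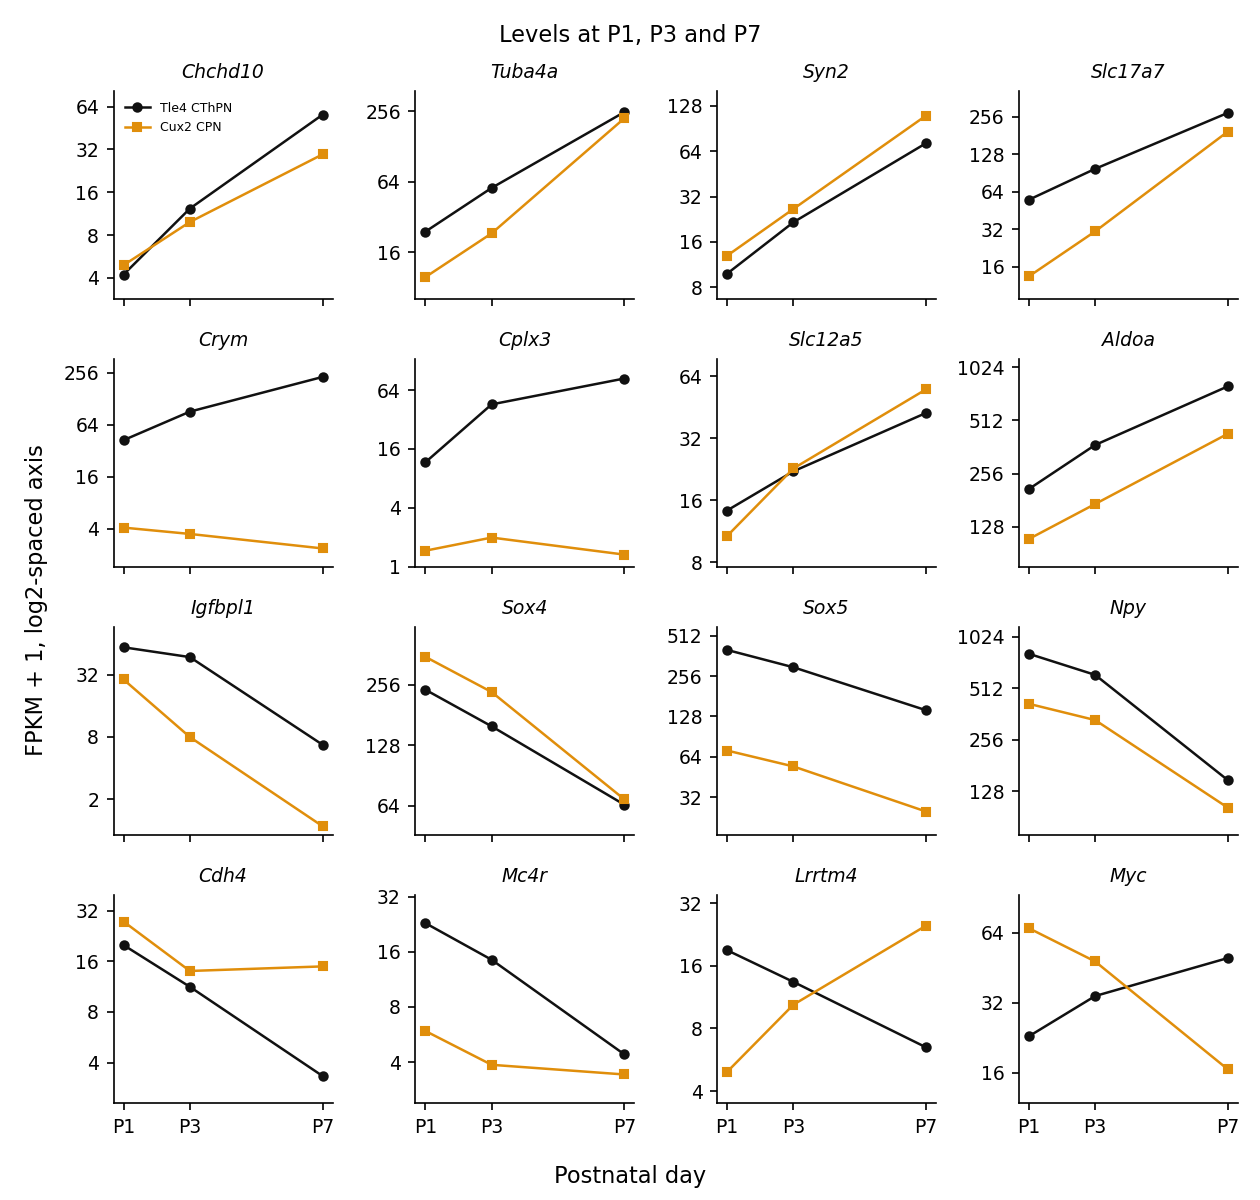
Levels of 16 genes at P1, P3 and P7 (horizontal axis) as FPKM + 1 on a log2-spaced axis that differs between panels, in Tle4 CThPN (black circles) and Cux2 CPN (orange squares), with 1 value per group and no error. Crym and Cplx3 climb in Tle4 CThPN while staying under 4 FPKM in Cux2 CPN, and Lrrtm4 and Myc move in opposite directions in the classes.

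The 5′ ends of 4 genes are shown to set 3 genes that rose beside 1 that did not. Each run is 300 bases of NCBIM37, from 250 before to 50 after the first base of the GENCODE transcript with the longest coding sequence, written along the gene's strand with matches to any of 11 short motifs in capitals. Chchd10 (chr10:75398068-75398367, plus strand) and Tuba4a (chr1:75215779-75216078, minus strand) were among the largest rises, Syn1 (chrX:20497995-20498294, minus strand) is a rising gene of the synapse, and Ndufs1 (chr1:63223347-63223646, minus strand), a core subunit of complex I, changed by 0.22.
Chchd10: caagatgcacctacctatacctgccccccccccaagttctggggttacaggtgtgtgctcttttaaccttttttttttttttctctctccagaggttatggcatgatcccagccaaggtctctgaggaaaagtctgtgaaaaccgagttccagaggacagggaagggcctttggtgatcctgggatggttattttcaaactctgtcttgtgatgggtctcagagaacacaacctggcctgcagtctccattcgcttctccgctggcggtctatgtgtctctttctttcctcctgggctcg
Tuba4a: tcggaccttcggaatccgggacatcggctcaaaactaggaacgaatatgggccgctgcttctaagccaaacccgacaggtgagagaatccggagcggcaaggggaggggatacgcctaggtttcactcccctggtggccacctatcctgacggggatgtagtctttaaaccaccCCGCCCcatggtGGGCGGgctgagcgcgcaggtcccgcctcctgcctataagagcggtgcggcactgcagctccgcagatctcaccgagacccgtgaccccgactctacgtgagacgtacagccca
Syn1: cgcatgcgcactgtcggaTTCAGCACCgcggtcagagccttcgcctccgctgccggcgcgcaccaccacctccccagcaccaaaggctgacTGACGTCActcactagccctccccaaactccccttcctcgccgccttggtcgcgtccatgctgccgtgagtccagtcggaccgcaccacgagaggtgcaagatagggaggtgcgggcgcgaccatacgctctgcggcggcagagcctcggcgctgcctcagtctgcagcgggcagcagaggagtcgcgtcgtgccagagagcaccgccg
Ndufs1: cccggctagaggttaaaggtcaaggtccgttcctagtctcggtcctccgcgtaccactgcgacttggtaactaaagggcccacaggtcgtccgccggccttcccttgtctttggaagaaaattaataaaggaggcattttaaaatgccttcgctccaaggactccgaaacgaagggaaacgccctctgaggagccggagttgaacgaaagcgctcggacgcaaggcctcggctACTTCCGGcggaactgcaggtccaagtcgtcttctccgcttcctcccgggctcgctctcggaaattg
The capitals mark 2 GC boxes in Tuba4a, the left part of an RE1 element (the site of the repressor REST) and a CRE (the site of CREB) in Syn1, and an ETS site in Ndufs1. Chchd10 held none of the 11. Ndufs1 was picked from the respiratory chain genes that hold an ETS site, as the one with the smallest change. Its ETS match was therefore fixed by the choice of gene.

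Motifs were searched on both strands. The site of CREB was searched as TGACGTCA and the E-box of basic helix-loop-helix factors as CACGTG. The GC box bound by SP factors was searched as GGGCGG, and the EGR site, which can overlap it, as GCGNGGGCG. The TATA box near a start site was searched as TATAAA, and the AP-1 site of FOS and JUN proteins as TGANTCA. Longer letters were AAGATGGCG for YY1, CCGGAAGT for ETS factors and TTCAGCACC for the left part of RE1, and the MEF2 and NRF1 sites are given here by name. Windows were found for 7468 coding members, among them 341 that rose and 184 that fell. The ETS letters lay in 1.47% of the windows of genes that rose and 2.17% of those that fell, against 9.72% of all. The NRF1 letters lay in 7.92% and 11.4%, against 15.5%, and the YY1 letters in 0.88% and 1.63%, against 3.79%. Windows rich in CpG, here those with at least 55% G and C and a ratio of observed to expected CpG of at least 0.65, made up 48.1% of the genes that rose, 58.2% of those that fell and 62.8% of all. The E-box letters lay in 7.04% and 8.15%, against 10.6%, GC boxes in 65.1% and 63.0%, against 66.0%, and CRE in 2.93% and 3.80%, against 3.56%. The AP-1 letters lay in 5.57% and 3.80%, against 4.12%, MEF2 in 3.52% and 2.72%, against 2.97%, and EGR in 12.0% and 9.78%, against 11.8%. TATA letters lay in 5.57% and 7.61%, against 6.60%, and RE1 in 0.29% and 0.54%, against 0.44%. A match here is a run of letters in a fixed window and does not show a bound factor.

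Identity genes moved in both directions. Of 23 genes of corticothalamic and layer 6 identity, 22 were members: 2 rose (9.09%, against 4.59% of all members), 6 fell (27.3%, against 2.73%) and the median change was -0.37, against 0.03 over all members. Sox5, a transcription factor that keeps deep-layer neurons from taking a subcerebral fate (chr6:143776945-144730497), was at 401 FPKM at P1, 297 at P3 and 141 at P7, a change of -1.50. Nfib and Nfia, transcription factors of the nuclear factor I family, were at 212, 118 and 78.0 and at 61.9, 36.2 and 25.5 FPKM. These 3 were highest at P1 and lowest at P7, and all 3 also fell in Cux2 CPN.

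Bcl11b, also called Ctip2, was at 67.6, 53.8 and 29.8 FPKM, and Id2, an inhibitor of basic helix-loop-helix factors, at 917, 910 and 451. Mc4r, the melanocortin receptor, was at 22.0, 13.5 and 3.41 FPKM and had the largest fall of the list, -2.38. Against them stood Crym, a thyroid hormone-binding protein of layer 6 (chr7:127329894-127345625), at 41.5, 90.0 and 229 FPKM, a change of 2.44, and Rprm, a cell cycle inhibitor, at 258, 344 and 545, a change of 1.08. In Cux2 CPN the changes of Crym and Rprm were -0.80 and -0.35.

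Of 12 subplate markers 8 were members, and 2 rose (25%, against 4.59% of all members). Cplx3, a complexin that also marks layer 6b, was at 10.7, 44.6 and 82.9 FPKM, a change of 2.85, while it stayed under 1 FPKM in Cux2 CPN. Adra2a, an adrenergic receptor, was at 4.72, 9.37 and 17.5 FPKM. Ctgf was at 37.2, 84.3 and 70.4, a change of 0.90, and Nxph4 at 32.7, 43.8 and 19.2, so the list did not move as one and its median change was -0.24. In bulk samples, a larger share of such cells and more RNA per cell cannot be told apart. Pcp4, a calmodulin-binding protein listed with layer 5, was at 226, 494 and 1175 FPKM, a change of 2.37.

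Some regulators of young neurons fell. Of 30 listed genes, mostly transcription factors, 20 were members, 6 fell (30.0%, against 2.73% of all members) and 0 rose. The median was -0.61, and 2 had a change above 0, against 52.7% of all members. Sox4 and Sox11, which act in newly born neurons, were at 242, 158 and 63.6 and at 16.7, 14.1 and 3.90 FPKM, changes of -1.91 and -1.85. Neurod2, a factor of cortical excitatory neurons, was at 131, 113 and 53.4 FPKM, and Zfp238, a repressor needed for their maturation, at 473, 348 and 194. Zeb2, a transcription factor, and Trim67, a ubiquitin ligase held in the same list, completed the 6, with changes of -1.05 and -1.13. The median of the same 20 genes was -1.12 in Cux2 CPN. Of 28 activity and maturation factors 14 were members, 0 passed a change of 1 in either direction, and the median was 0.07. Factors under the 10 FPKM minimum were not counted.

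Synaptic lists held more rises than the 4.59% of all members. Of 70 genes of the synaptic vesicle and its release 53 were members, 14 rose (26.4%) and 0 fell, and the median change was 0.59. Slc17a7, the vesicular glutamate transporter VGLUT1 (chr7:52419291-52431508), was at 54.3, 97.0 and 275 FPKM, a change of 2.32. Syp, the vesicle protein synaptophysin, was at 188, 244 and 442 FPKM. Both climbed at each step, and so did Syt1, the calcium sensor of release, at 84.0, 113 and 189 FPKM.

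Syn1, the synapsin whose 5′ end is shown above, was at 124, 167 and 264 FPKM, and Stx1a, a SNARE of the plasma membrane, at 76.0, 105 and 194. Dnm1, the dynamin of vesicle retrieval, was at 88.7, 124 and 229 FPKM. Others that rose were Syn2, Syt13, Cadps2, Doc2a, Sncb, Syngr1 and Syngr3, with changes from 1.01 to 2.88. Of 52 genes of the postsynaptic density 37 were members, 4 rose (10.8%) and 1 fell (2.70%, close to the 2.73% of all members): Icam5, Nrgn, Camk2d and Camk2a changed by 2.65, 1.98, 1.97 and 1.26, and Lrrtm4 by -1.55. Camk2a, a kinase of the excitatory synapse, was at 7.34, 8.04 and 19.0 FPKM in Tle4 CThPN and at 5.24, 16.3 and 92.6 in Cux2 CPN.

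Of 21 member genes for ionotropic glutamate receptors and their partners, 6 rose (28.6%) and 2 fell (9.52%, against 2.73% of all members), and the median change was 0.17. All 6 rises were of auxiliary or partner genes (Cacng3, Neto1, Nptx1, Nptxr, Olfm1 and Olfm2). No member Gria, Grin or Grik subunit passed 1, but subunits under the 10 FPKM minimum were not counted. Of those, Grin3a was at 1.73, 4.36 and 8.27 FPKM and Grin2d at 1.41, 2.08 and 5.78. Grin2a (2.31, 1.69 and 4.21 FPKM) and Grik1 (0.811, 0.961 and 2.06) lay below it as well. Under median-ratio scaling Nptx1, Olfm1 and Olfm2 came to just under 1. The auxiliary subunits of AMPA receptors moved apart: Cacng3 was at 3.21, 6.90 and 15.4 FPKM, whereas Cacng4 was at 45.2, 38.6 and 20.1 and Shisa6 at 11.4, 7.28 and 2.65. Nptxr, a pentraxin receptor that gathers AMPA receptors, was at 24.9, 43.2 and 70.2 FPKM, and Grm7, a presynaptic metabotropic receptor, at 8.41, 12.8 and 24.9.

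Of 16 member genes for GABA receptors and chloride transporters 5 rose (31.2%) and 0 fell, with a median of 0.47. Slc12a5, the potassium-chloride exporter KCC2 (chr2:164786316-164825228), was at 13.3, 21.1 and 41.5 FPKM, a change of 1.58. The receptor subunit genes Gabrb1, Gabrd and Gabra5 changed by 1.71, 1.36 and 1.00. These 4 genes also rose in Cux2 CPN, by between 1.18 and 2.52. Gabra5 was at 0.98 under median-ratio scaling, as was Syngr3 of the vesicle list.

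Of 34 member genes for potassium and HCN channels 9 rose (26.5%, against 4.59% of all members) and 0 fell, and the median was 0.52. Kcns1, a silent subunit that modifies Kv2 channels, was at 1.95, 3.94 and 14.1 FPKM, a change of 2.35. Kcnj9, a G protein-gated channel, was at 6.37, 11.9 and 33.5 FPKM, and Hcn2, which carries the hyperpolarization-activated current, at 7.38, 11.2 and 19.4. Kcnf1, Kcnh3, Kcnc4, Kcnj4, Kcnt1 and Kcnn1 rose by 2.08, 1.56, 1.47, 1.39, 1.31 and 1.07. With a pseudocount of 5, Kcnj4, Kcnt1, Kcnn1 and Hcn2 no longer passed 1.

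Among 9 sodium channel genes 1 rose (11.1%, against 4.59% of all members) and 0 fell, and the median was -0.06, or 0.24 when centred on genes of like exon length. None of the 5 member genes for sodium-potassium ATPase subunits and partners passed. All 5 had changes above 0, against 52.7% of all members, and their median was 0.76.

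Of 3 member neurofilament genes 2 rose (66.7%, against 4.59% of all members) and 0 fell. Nefl and Nefm, the light and medium neurofilament chains, were at 17.9, 29.1 and 85.2 and at 10.4, 12.7 and 35.1 FPKM, changes of 2.19 and 1.66. Ina, the third member of their list, had a change of -0.70. Of 26 tubulins and microtubule-associated proteins 3 rose (11.5%, against 4.59% of all members) and 0 fell, with a median of 0.01. The 3 were Tuba4a, Tuba1c and Tuba1b, and the values of the last 2 are uncertain. No gene among 34 of axon growth and the growth cone passed a change of 1, and their median was 0.00. Gap43, the growth-associated protein, was at 848, 1056 and 1036 FPKM.

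Of 42 member adhesion genes 6 rose (14.3%, against 4.59% of all members) and 5 fell (11.9%, against 2.73%). Thy1 and Ncam2, both of the immunoglobulin superfamily, were at 3.42, 7.88 and 23.3 and at 2.68, 3.14 and 14.9 FPKM. Cdh4, a classical cadherin, was at 19.0, 10.3 and 2.33 FPKM, and Cntn2, a contactin of growing axons, at 140, 99.7 and 46.3. St8sia2, which adds polysialic acid to NCAM, was at 44.0, 34.2 and 14.8 FPKM. Of 36 member guidance genes 1 rose and 1 fell (2.78% each), shares near or under those of all members: Sema5b, a semaphorin, was at 1.63, 2.28 and 13.3 FPKM, and Ephb1, an ephrin receptor, at 114, 84.3 and 40.9.

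Of 18 member neuropeptides and growth factors 2 rose (11.1%, against 4.59% of all members) and 5 fell (27.8%, against 2.73%), with a median of -0.01. Ptn, pleiotrophin, was at 133, 81.0 and 40.5 FPKM, and Wnt7b at 171, 135 and 53.7. Vgf, a precursor of secreted peptides, was at 9.71, 8.88 and 24.0 FPKM. Npy, a neuropeptide precursor listed with interneurons, was at 816, 614 and 148 FPKM, while Gad1 was at 1.33, 1.15 and 0.998. Dnmt3a, the methyltransferase that sets new DNA methylation in postnatal neurons, was at 22.1, 36.5 and 49.7 FPKM and was the 1 gene of 8 in its list to pass (12.5%, against 4.59% of all members), with a change of 1.13.

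Genes of energy metabolism were mostly above 0. All 22 member genes of glycolysis and lactate handling had changes above 0, against 52.7% of all members, 6 rose (27.3%, against 4.59%), and the median was 0.68. Aldoa, an aldolase, was at 208, 371 and 797 FPKM, and Gpi1, which converts glucose 6-phosphate, at 40.04, 65.6 and 169. Tpi1, Eno1 and Eno2, further enzymes of the pathway, changed by 1.24, 1.05 and 1.48, and Slc2a3, the neuronal glucose transporter, by 1.15.

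Of 84 member genes of the respiratory chain and ATP synthase 81 had changes above 0, against 52.7% of all members, 1 rose (1.19%, under the 4.59% of all members), and the median was 0.43. The 1 was Cox8a, a subunit of complex IV, at 427, 602 and 861 FPKM, whose change of 1.01 was 0.98 under median-ratio scaling. Of 20 genes of the tricarboxylic acid cycle 19 had changes above 0, against 52.7% of all members. Got1 alone rose by at least 1 (5% of the list, near the 4.59% of all members), with a change of 1.09. Idh2, the mitochondrial isocitrate dehydrogenase, was the 1 gene below 0, at 60.7, 49.02 and 27.5 FPKM. It was the 1 fall of the list (5%, against 2.73% of all members). Cytosolic ribosomal protein genes, with 81 members, had a median change of 0.02 in Tle4 CThPN and -0.70 in Cux2 CPN, and mitochondrial ribosomal protein genes medians of 0.31 and 0.02. Centred on genes of like exon length, the cytosolic median in Tle4 CThPN changed sign and the mitochondrial one was smaller, with values given below. Among 42 member genes of the spliceosome 33 had changes below 0 and 9 above it (21.4%, against 52.7% of all members). Of these genes 0 passed, and the median was -0.26.

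**Figure D3:**
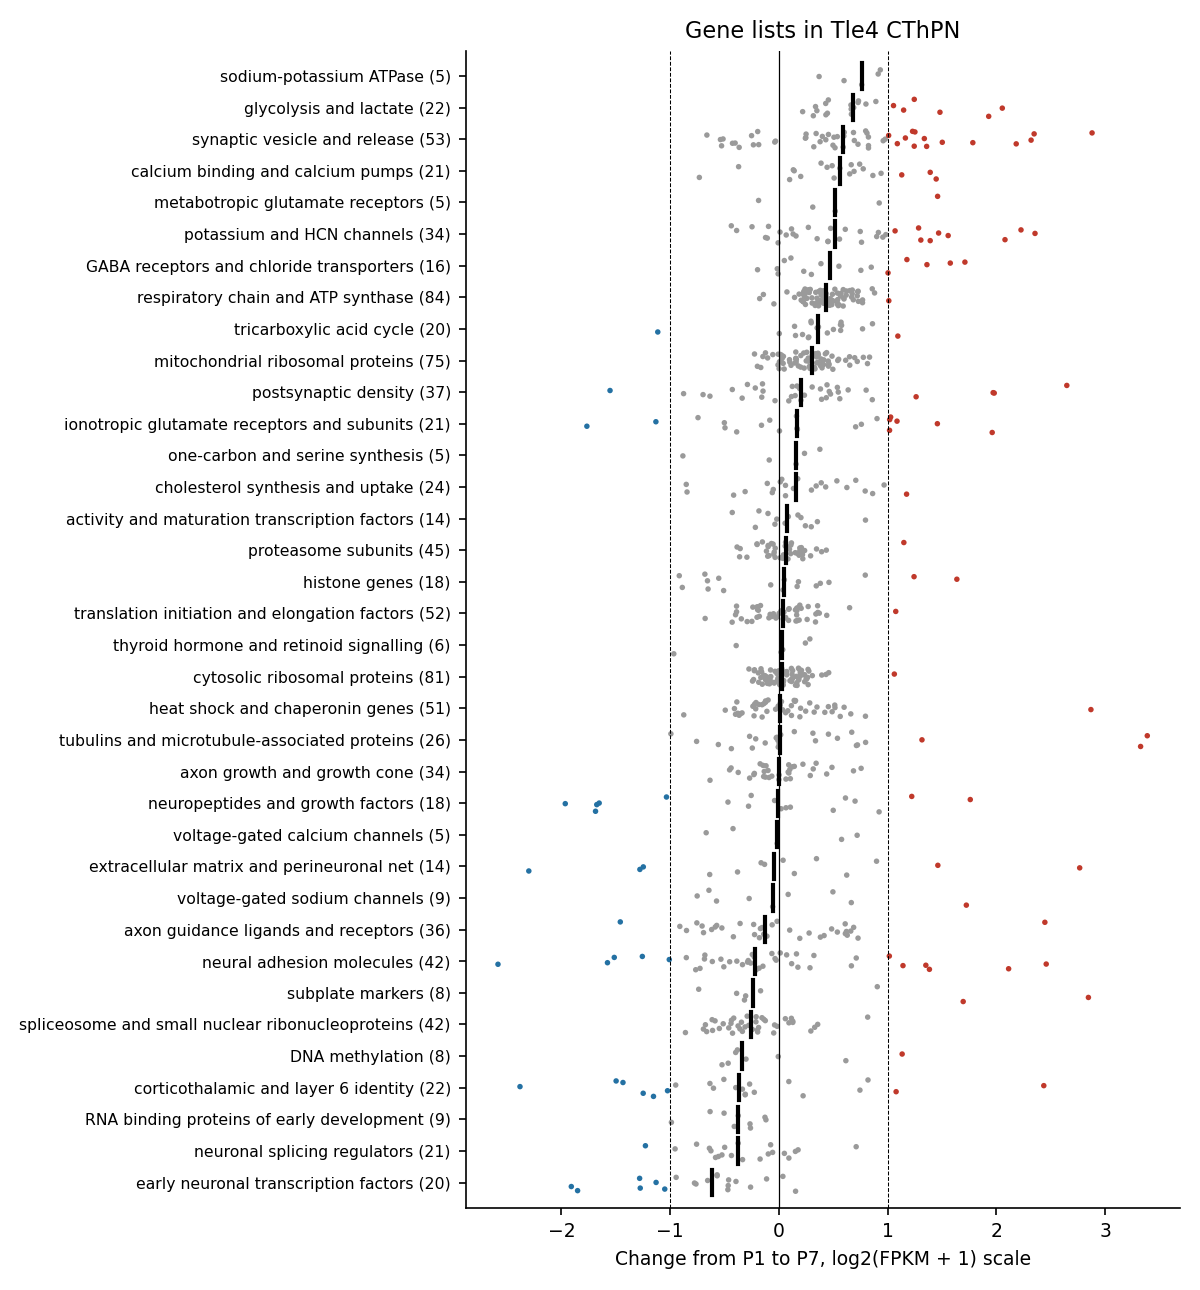
Change from P1 to P7 in Tle4 CThPN on the log2(FPKM + 1) scale (horizontal axis) for the members of each gene list with at least 5 members, other-cell lists left out, with the number of members in brackets. Each point is a gene, red at 1 or above, blue at -1 or below, and the black bar is the list's median, which runs from -0.61 for early neuronal transcription factors to 0.76 for the sodium-potassium ATPase.

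Gene length moved with the change in Tle4 CThPN. Coding members were split into 5 equal groups by annotated exon length: the shortest group (median 1428 nt) had a median change of 0.22 from P1 to P7 and the longest (median 8096 nt) of -0.21. The split arose before P3, with medians of 0.18 and -0.17 from P1 to P3 and 0.04 and -0.03 from P3 to P7. In Cux2 CPN the same groups had medians of -0.00 and -0.05 from P1 to P7. The G and C content of the transcript moved with the change as well, from a median of -0.17 in the lowest of 5 equal groups to 0.24 in the highest. In Cux2 CPN it ran the other way, from 0.12 to -0.08. Respiratory chain genes are short, with a median exon length of 1334 nt, and vesicle genes are long, with 5239 nt. Centred on genes of like exon length, a calculation added after the data were seen, their median changes were 0.26 and 0.61. Centred in this way, 323 genes rose and 181 fell.

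**Figure D4:**
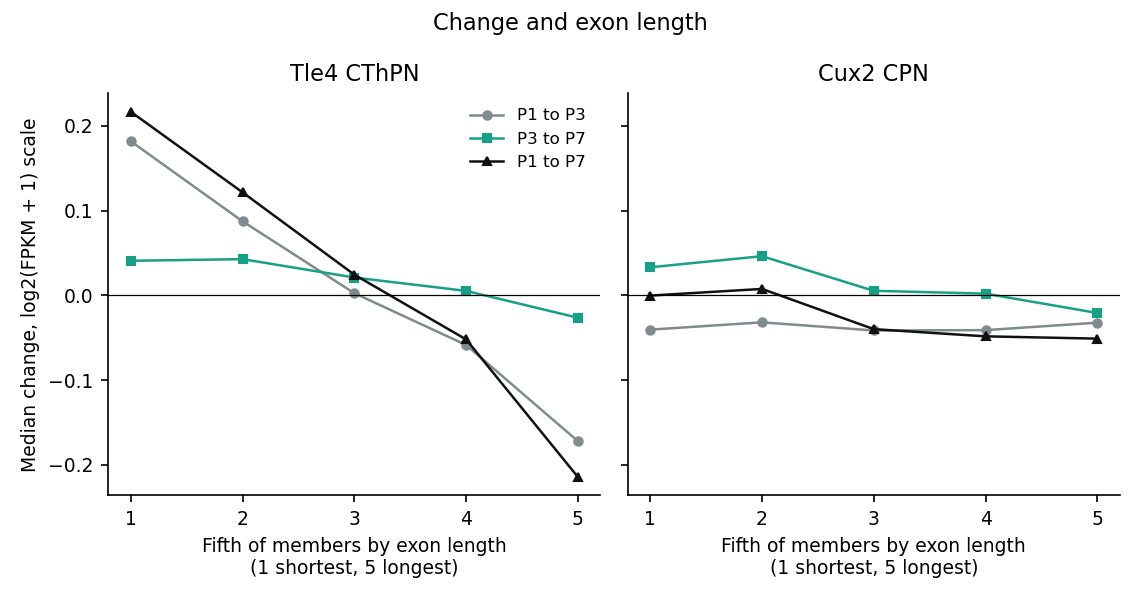
Median change on the log2(FPKM + 1) scale (vertical axis) of coding members in 5 equal groups by exon length (horizontal axis, 1 shortest), in Tle4 CThPN (left) and Cux2 CPN (right), for P1 to P3 (grey circles), P3 to P7 (green squares) and P1 to P7 (black triangles). The slope from 0.22 to -0.21 in Tle4 CThPN has its like in the step from P1 to P3, and Cux2 CPN is nearly level.

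Long genes with a low value at P3 included Usp9x, a deubiquitinase, at 33.0, 18.3 and 31.7 FPKM, and Dzip3, a ubiquitin ligase, at 13.2, 6.94 and 11.8. Both were among the 5 whose P3 value lay farthest below both neighbours, with U4atac, a 5S_rRNA row and Gm10197. The exon lengths of Usp9x and Dzip3 are 17363 and 9081 nt. Malat1, a nuclear long noncoding RNA chosen after its values were seen, was at 1501, 701 and 497 FPKM in Tle4 CThPN and at 890, 1437 and 1590 in Cux2 CPN.

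Most of what changed in Tle4 CThPN had the same sign in Cux2 CPN. Of the 358 genes that rose, 232 (64.8%) also rose by at least 1 in Cux2 CPN, where 7.48% of all members did, and 335 had a change above 0. Of the 213 that fell, 114 (53.5%) also fell, where 4.36% of all members did. Across the 7795 genes, which share their libraries and are not independent replicates, Pearson's r between the changes was 0.63 and Spearman's rho 0.62. The plot of one class against the other shows the spread around this relation. A small change in Cux2 CPN can reflect a low level there: 290 of the 358 rising and 161 of the 213 falling genes reached 10 FPKM in Cux2 CPN at P1, P3 or P7. Calca, Cplx3 and Sema5b did not.

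**Figure D5:**
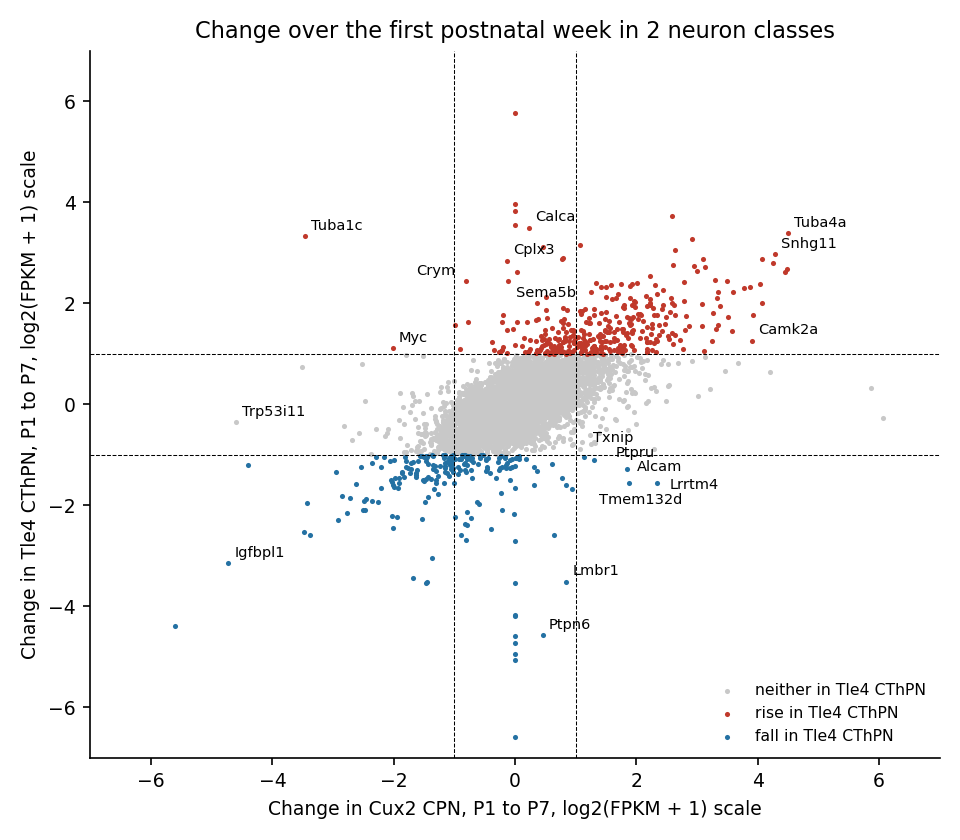
Change from P1 to P7 in Tle4 CThPN (vertical axis) against that in Cux2 CPN (horizontal axis), both on the log2(FPKM + 1) scale, with 1 point per gene and dashed lines at 1 and -1. Most of the red and blue points lie in the quadrants where both classes moved the same way, and the 7 genes past a dashed line in opposite directions are named.

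Outside Tuba1c and rows of short RNAs and predicted models, the genes whose changes differed by more than 4 between the classes were Ptpn6, Lmbr1 and Trp53i11, a target of p53. Trp53i11 was at 210 FPKM at P1 and P3 and 164 at P7 in Tle4 CThPN, and at 113, 53.2 and 3.71 in Cux2 CPN. Its change was -0.36 against -4.60.

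The levels at other ages place the first week in a longer course. The P1 and P7 values chose the genes, so only E18.5, P21 and P48 add information. Of the 358 genes that rose, 301 had their lowest Tle4 CThPN value at E18.5, against 32.0% of all members, and 221 stood higher than at P7 at both P21 and P48, against 39.9%. A low P1 value chose these genes, and a high one those that fell, which bears on these counts. The median level of the genes that rose was 6.92 FPKM at E18.5, 10.3 at P1, 31.8 at P7, 49.5 at P21 and 48.4 at P48. A subset of 25 were below their P1 value at both later ages, Tuba1c, Calca, Kcnn1 and Myc among them. Of the 213 that fell, 170 were highest at E18.5, against 22.2% of all members, and 204 stayed below P1 at both P21 and P48, against 51.3%. Sox5 was at 72.4 and 73.6 FPKM and Igfbpl1 at 0.025 and 0.145 FPKM at these ages.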

How the data were processed

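RNA-seq libraries from FACS-isolated Tle4 CThPN and Cux2 CPN at 6 ages were made with SMART-Seq, which does not keep strand, so a gene and its antisense partner cannot be told apart. The authors trimmed reads with Trimmomatic, aligned them with TopHat2 to NCBIM37 (mm9) and deposited FPKM from Cuffdiff, 1 value per gene and group over 2 libraries, in 12 columns. FPKM keep no read depth, so the depth per sample and the counting error are unknown.

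Changes were differences of log2(FPKM + 1), with a pseudocount of 1, which understates the change of low genes. A gene was called risen or fallen at a difference of at least 1, with no test. The scripts (Python 3.11.15, pandas 2.3.3, numpy 2.4.6) were tested on simulated data. Exon lengths, positions and 5′ ends came from the GENCODE annotation on NCBIM37, which matched 7651 members. Of the members, 42 share a symbol and 18 carry a symbol turned into a date.

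Named genes were the 15 largest rises and 15 largest falls, the 5 with P3 farthest above and the 5 farthest below both neighbours, the 5 in each direction that differed most between classes, opposite movers, list genes that passed 1 or were highest or most changed in their list, cell type markers, the genes at the edge of the minimum and the Cre genes. Ctgf, Nxph4 and other genes outside these were chosen after their values were seen. The members and the 51 lists were chosen with earlier results of these data known. Chromatin accessibility, methylation and single-cell data were not analysed here. Some items are not reported here.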

Additional observations from a re-analysis of the deposited data

Results flagged for a closer look

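The 7 genes here moved by at least 1 in opposite directions from P1 to P7 in the classes, with 1 value per group, so the difference was not tested. Differences are the Tle4 CThPN change minus the Cux2 CPN change on the log2(FPKM + 1) scale. With a pseudocount of 5, only Lrrtm4 and Tuba1c still passed 1 in opposite directions. Tmem132d and Ptpru stayed under 10 FPKM in Cux2 CPN at these ages.

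Lrrtm4, a postsynaptic adhesion protein, was at 18.03, 12.4 and 5.49 FPKM in Tle4 CThPN and at 3.94, 9.41 and 24.0 in Cux2 CPN, a difference of -3.89. Alcam, an adhesion molecule of the immunoglobulin superfamily, was at 17.5, 11.2 and 6.60 against 8.87, 16.02 and 34.4 FPKM, a difference of -3.12. Both fell in the corticothalamic class and rose in the callosal class.

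Tmem132d, a transmembrane protein, was at 15.8, 9.11 and 4.69 against 0.776, 0.517 and 5.50 FPKM, a difference of -3.43. Ptpru, a receptor phosphatase, was at 21.8, 12.7 and 9.70 against 2.49, 2.61 and 7.65 FPKM, a difference of -2.40. Txnip, a thioredoxin-binding protein, was at 23.6, 21.9 and 11.0 against 9.71, 12.99 and 22.6 FPKM, a difference of -2.18. These 3 moved the same way as Lrrtm4.

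Myc, a transcription factor of growth, went the other way, at 21.9, 33.2 and 48.8 against 65.9, 47.1 and 15.6 FPKM, a difference of 3.13. Tuba1c, whose sequence is close to that of other tubulins, was at 1.63, 43.6 and 25.4 against 48.6, 11.1 and 3.50 FPKM, a difference of 6.79.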

How the results depend on the processing

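No paired analysis was possible because the table holds 1 value per group and its columns carry no replicate numbers, and leaving out a replicate was not possible for the same reason. Counts are given as rises and falls in Tle4 CThPN from P1 to P7, P1 to P3 and P3 to P7, then in Cux2 CPN from P1 to P7. At a limit of 1.5 they were 145 and 71, 15 and 11, 36 and 30, and 259 and 107. At a limit of 0.5 they were 1242 and 1052, 378 and 347, 623 and 395, and 1443 and 1433. At a minimum of 30 FPKM they were 184 and 86, 24 and 8, 53 and 29, and 291 and 168. With a pseudocount of 5, falls were 127 from P1 to P7, rises and falls 23 and 14 from P1 to P3 and 72 and 41 from P3 to P7, and falls 197 in Cux2 CPN. With no minimum, falls from P1 to P3 were 38, rises from P3 to P7 199 and rises in Cux2 CPN 927. Falls from P1 to P3 were 52 with the dropped symbols kept, which moved the share of rises there from 67.9% to 54.4%, and 15 without genes up to 300 nt and small-RNA names. That last alternative and centring on genes of like exon length were chosen after seeing the data. The median of the axon guidance list turned to 0.024 when centred, and that of the metabotropic receptors to -0.19 at a minimum of 30 FPKM, where Grm3 alone remained. Of 43 list medians, 18 others moved when centred, among them those of adhesion (-0.01), GABA (0.59), postsynaptic (0.38), tubulin (0.20), methylation (-0.12) and mitochondrial ribosomal genes (0.16), and of sodium channels (0.24) and cytosolic ribosomal proteins (-0.13), which changed sign, 14 others at that minimum and 4 with a pseudocount of 5. The causes were not tested. No named gene changed sign under a pseudocount of 5, median-ratio scaling or exon-length centring, where 34, 7 and 18 of them no longer passed 1. With no depth and 1 value per group, no spread can be set beside any count.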

Other observations

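The genes in this paragraph lie outside the lists and were chosen after their values were seen. They are single genes and say nothing of their families. Chrna4, a nicotinic receptor subunit, was at 6.54, 13.1 and 31.8 FPKM at P1, P3 and P7, and Chrm1, a muscarinic receptor, at 7.96, 9.17 and 18.51. Htr7, a serotonin receptor, was at 1.27, 6.41 and 11.2 FPKM, and Sstr4, a somatostatin receptor, at 5.35, 12.7 and 24.9. All 4 were highest at P7 of the 3 ages. Trh, the precursor of thyrotropin-releasing hormone, was at 23.3, 47.96 and 74.1 FPKM and Grp, that of gastrin-releasing peptide, at 76.3, 131 and 183.

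A further 5 single genes, again chosen after their values were seen, fell, while Mcm6, another helicase subunit, had a change of 0.55. Mcm7, a subunit of the replicative helicase, was at 42.5, 27.8 and 15.5 FPKM, and Gins1, its partner, at 10.3, 7.43 and 3.44. Ezh2, the methyltransferase of the Polycomb complex, was at 21.5, 12.1 and 5.13 FPKM, and Jarid2, a further subunit, at 20.2, 14.5 and 9.04. Kdm5b, a histone demethylase, was at 64.7, 47.5 and 30.0 FPKM. Each was lowest at P7.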
